A study of Mus musculus with 6 samples.

Results

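The genes of DNA replication licensing, origin firing and fork progression were followed in mouse radial glial progenitors, the dividing stem cells of the developing cortex. A list of 53 genes was taken by symbol from a table of 32285 genes, with a single row kept per gene, and all 53 were found. They were sorted by role into 15 licensing genes, 8 firing genes, 26 fork genes, 2 subunits of the chromatin assembly factor CAF-1 and the 2 MCM paralogs of recombination repair. Neocortices of wild-type (WT) E10.5 embryos were dissociated and cultured. About 2 h later the cells received either GSK2837808A, an inhibitor of lactate dehydrogenase, or the same volume of its solvent DMSO. After about 24 h close to 1000 living cells (DAPI-) with CD133 (encoded by Prom1) on their surface were sorted for each library, and RNA was amplified by the Smart-seq2 protocol. Each group held 3 libraries, called DMSO 1 to 3 and GSK 1 to 3. The inhibitor concentration is written as 100 mM in the labels, a value far above usual culture doses that was not verified, so the dose behind every difference is uncertain. Only living CD133+ cells that remained at the end of the culture were sampled, with a single inhibitor, a single dose and a single time. No label says that replicates were separate cultures or embryos, so each p-value reflects only how far these samples scatter, and that scatter may be technical.

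Replication is prepared by licensing in G1 and begins with origin firing in S phase. The origin recognition complex (ORC), with CDC6 and CDT1, loads the ring-shaped MCM2-7 helicase onto origins, and geminin blocks further loading by binding CDT1. The kinases DDK and CDK then help recruit CDC45 and GINS, which turn the loaded rings into working helicases, and polymerases with their clamp, clamp loader and single-strand binding proteins copy the strands. Many of these genes are known targets of E2F transcription factors, which are active around the passage from G1 to S phase, and radial glial progenitors divide rapidly at this stage of cortical development.

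Between 7187089 and 10224348 reads were recovered per library, and every member had between 57 and 3773 reads in each library. Values are normalised reads, that is, read counts that the authors scaled between libraries. The labelled cell type was checked with 12 radial glia markers, all of which were detected. Their summed level ran from 21963 to 23041 normalised reads in DMSO libraries, of which Vim alone made 10011 to 10255. Mesenchyme markers were also high, at a summed 26431 to 33314 in DMSO libraries, of which the collagen gene Col3a1 made 13966 to 17542. In bulk samples, fewer cells of a type and less RNA per cell cannot be told apart.

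Most of the replication machinery was lower in GSK libraries. By limma's moderated test at an adjusted p below 0.05, 45 of the 53 members fell, against 19.1% of all 15073 genes tested. A single member rose, the origin recognition subunit gene Orc5, against 17.0% of all genes tested. The remaining 7 (Orc2, Orc3, Orc4, Gins2, Rpa3, Rnaseh2a and Mcm9) did not pass. The median log2 fold change of the members was -1.08, with a range from -2.05 for Mcm3 to 0.42 for Orc5, beside a median of 0.01 over all genes tested. A fall of at least 2-fold that also passed was found for 29 members, against 6.91% of all genes. All 3 GSK values lay below all 3 DMSO values for 47 members, against 24.4% of all genes, and all 3 lay above for Orc5 alone, against 22.8%. The groups overlapped for Orc3, Orc4, Rpa3, Rnaseh2a and Mcm9. Summed over the 53 genes, the level was 41518 to 44248 normalised reads in DMSO libraries and 19471 to 23147 in GSK libraries, or 50.9% of the DMSO mean.

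**Figure D1:**
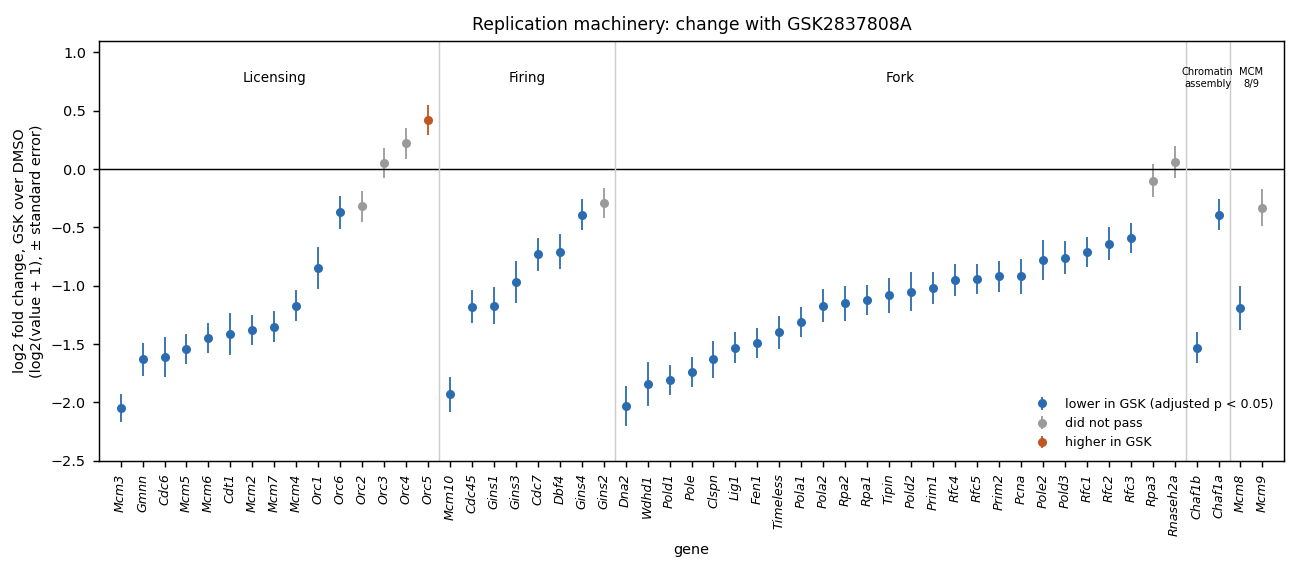
Log2 fold change of each of the 53 replication genes (vertical axis, GSK over DMSO on the log2(value + 1) scale, point and standard error from limma), grouped by step along the horizontal axis and coloured by the result of the test. Nearly all points lie below 0, with Mcm3 at -2.05 and Dna2 at -2.03 lowest and Orc5 at 0.42 highest.

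The licensing genes had the lowest median of the 5 roles. Of 15, 11 fell and Orc5 rose, and the median log2 fold change was -1.35. The 6 genes of the MCM2-7 ring, the helicase that unwinds DNA at the fork, all fell, with log2 fold changes from -1.17 for Mcm4 to -2.05 for Mcm3. Mcm3, on chromosome 1 (GRCm38, 20802968 to 20820312, minus strand), stood at 1840, 1981 and 1870 normalised reads in DMSO 1 to 3 and at 432, 463 and 481 in GSK 1 to 3. The groups were far apart and the spread within each was small. Its log2 fold change of -2.05 (SE 0.12, limma adjusted p = 1.74e-10) was both the largest fall and the smallest p among the members. Mcm7, on chromosome 5, was the most abundant member per length of transcript, at 1037 ± 53.5 (SD, n = 3) normalised reads per kb in DMSO and 406 ± 34.4 (SD, n = 3) in GSK libraries. Its values were 2929, 3242 and 3042 normalised reads in DMSO 1 to 3 and 1104, 1307 and 1199 in GSK 1 to 3. No GSK value came near a DMSO value, and the log2 fold change was -1.35 (SE 0.13, limma adjusted p = 9.04e-08). Mcm2, Mcm4, Mcm5 and Mcm6 stood in GSK libraries at 38.3%, 44.4%, 34.4% and 36.5% of their DMSO means.

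Promoter windows of RefSeq (GRCm38.p6), 250 bases before to 50 after an annotated start, are shown for 5 genes of the MCM2-7 ring and 3 of ORC, with and without E2F words. Capitals mark each match to TTTCCCGC, TTTCGCGC, TTTGGCGC or TTTGCCGC on either strand, and each window runs 5′ to 3′ along the gene's own strand from upstream into the start of the transcript. The windows are Mcm2 at chr6:88898731-88899030 (minus strand), Mcm3 at chr1:20820263-20820562 (minus strand), Mcm5 at chr8:75109259-75109558 (plus), Mcm6 at chr1:128359656-128359955 (minus), Mcm7 at chr5:138171834-138172133 (minus), Orc1 at chr4:108579204-108579503 (plus), Orc3 at chr4:34614893-34615192 (minus) and Orc5 at chr5:22550289-22550588 (minus).
Mcm2: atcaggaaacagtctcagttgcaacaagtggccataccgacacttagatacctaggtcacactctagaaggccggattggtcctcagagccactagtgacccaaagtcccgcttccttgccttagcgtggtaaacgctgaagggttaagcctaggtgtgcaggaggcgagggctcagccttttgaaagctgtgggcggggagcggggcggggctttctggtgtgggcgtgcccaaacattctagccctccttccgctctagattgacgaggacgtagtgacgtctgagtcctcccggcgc
Mcm3: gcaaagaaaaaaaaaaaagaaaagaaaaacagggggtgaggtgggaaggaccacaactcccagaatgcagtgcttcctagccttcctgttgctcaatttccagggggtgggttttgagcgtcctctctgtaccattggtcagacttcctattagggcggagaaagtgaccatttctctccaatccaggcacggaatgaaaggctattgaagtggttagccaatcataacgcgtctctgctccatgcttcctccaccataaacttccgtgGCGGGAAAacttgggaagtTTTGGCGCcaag
Mcm5: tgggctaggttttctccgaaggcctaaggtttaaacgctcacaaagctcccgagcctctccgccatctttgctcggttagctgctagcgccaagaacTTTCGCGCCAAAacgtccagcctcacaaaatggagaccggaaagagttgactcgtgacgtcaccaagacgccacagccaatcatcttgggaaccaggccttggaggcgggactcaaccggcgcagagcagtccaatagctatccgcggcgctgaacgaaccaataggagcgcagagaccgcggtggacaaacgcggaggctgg
Mcm6: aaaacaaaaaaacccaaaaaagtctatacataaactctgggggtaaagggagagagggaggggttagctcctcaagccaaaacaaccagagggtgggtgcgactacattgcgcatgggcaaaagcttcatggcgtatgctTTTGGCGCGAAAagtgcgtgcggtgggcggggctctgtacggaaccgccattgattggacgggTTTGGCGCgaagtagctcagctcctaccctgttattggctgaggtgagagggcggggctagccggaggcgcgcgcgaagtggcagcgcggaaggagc
Mcm7: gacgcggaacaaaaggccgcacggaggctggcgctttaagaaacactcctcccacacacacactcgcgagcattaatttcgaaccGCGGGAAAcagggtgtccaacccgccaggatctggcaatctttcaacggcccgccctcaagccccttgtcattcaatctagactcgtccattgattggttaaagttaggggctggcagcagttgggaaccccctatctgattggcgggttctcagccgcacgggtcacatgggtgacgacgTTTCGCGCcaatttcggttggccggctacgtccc
Orc1: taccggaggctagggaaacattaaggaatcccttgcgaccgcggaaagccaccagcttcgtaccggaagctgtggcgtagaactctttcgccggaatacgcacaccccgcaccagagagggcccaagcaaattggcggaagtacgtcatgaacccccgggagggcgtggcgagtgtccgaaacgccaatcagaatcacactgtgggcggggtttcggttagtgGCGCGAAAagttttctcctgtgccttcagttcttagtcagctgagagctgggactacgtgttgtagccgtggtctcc
Orc3: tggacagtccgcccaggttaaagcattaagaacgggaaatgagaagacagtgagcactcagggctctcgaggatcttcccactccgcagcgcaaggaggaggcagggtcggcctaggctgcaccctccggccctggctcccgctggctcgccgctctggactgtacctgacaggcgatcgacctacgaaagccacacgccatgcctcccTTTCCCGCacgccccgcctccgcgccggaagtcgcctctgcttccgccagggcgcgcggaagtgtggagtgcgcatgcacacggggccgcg
Orc5: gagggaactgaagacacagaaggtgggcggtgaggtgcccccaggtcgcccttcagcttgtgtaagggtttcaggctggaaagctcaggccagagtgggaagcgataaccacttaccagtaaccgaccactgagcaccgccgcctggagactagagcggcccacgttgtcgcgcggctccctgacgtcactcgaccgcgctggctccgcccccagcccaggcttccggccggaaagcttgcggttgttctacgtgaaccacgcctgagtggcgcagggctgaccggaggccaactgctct
The Mcm3 window holds its words after the start, with first bases at 19 and 38. In the Mcm5 window the words begin at -153 and -149 and overlap, so that they form a single run of capitals, and the same holds for those at -110 and -106 in the Mcm6 window, which has another at -47. The Mcm7 words begin at -165 and 16, while a further RefSeq window of Mcm7 holds none. Orc1 and Orc3 each have a word, at -27 and -41, although Orc1 fell and Orc3 did not pass. No word is found in the windows of Mcm2 and Orc6, which fell with log2 fold changes of -1.38 and -0.37. Orc5, which rose, and Orc2 and Orc4, which did not pass, have none either. Whether a word goes with a fall among these genes was not tested. A match is a description of the letters and not evidence of binding.

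The origin recognition complex, which marks origins for loading, split by subunit. Orc1, the subunit whose protein is known to be destroyed and remade in each cell cycle in mammals, fell with a log2 fold change of -0.85 (SE 0.18, limma adjusted p = 0.00103). It was the least abundant subunit, at 122, 148 and 155 normalised reads in DMSO 1 to 3 and 69.4, 77.2 and 87.0 in GSK 1 to 3. Every GSK value was below every DMSO value. Orc5, on chromosome 5 (22486485 to 22550429, minus strand), was instead at 283, 274 and 296 normalised reads in DMSO 1 to 3 and 383, 379 and 380 in GSK 1 to 3. The GSK libraries all lay higher and close together. The rise was 0.42 on the log2 scale (SE 0.13, limma adjusted p = 0.0178), and its adjusted p was 0.0523 without DMSO 1, 0.0771 without DMSO 2 and 0.0694 without GSK 2. Orc6, which joins the complex last and more loosely, had a log2 fold change of -0.37 (limma adjusted p = 0.045). Its adjusted p was between 0.0802 and 0.136 when any library but GSK 3 was left out, and without GSK 1 its log2 fold change was -0.22. Orc3 and Orc4 had log2 fold changes of 0.05 and 0.22 with overlapping groups, and neither passed, while Orc2 at -0.32 missed the threshold with a limma adjusted p of 0.0629. Orc2 passed at 0.0296 without DMSO 3. For Orc3 the sign turned to -0.02 when libraries were scaled to equal totals. The ratio of Orc1 to Orc4 was 0.183, 0.244 and 0.268 in DMSO 1 to 3 and 0.0946, 0.121 and 0.111 in GSK 1 to 3, with no overlap. The difference in log2 ratio was -1.07 (two-sided exact permutation p = 0.1, the smallest that 3 against 3 allows, and 0.3 adjusted over the 3 ratios compared).

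The loading factors and their inhibitor fell together. Cdc6, the ATPase that works with ORC, fell with a log2 fold change of -1.61 (SE 0.17, limma adjusted p = 2.68e-07), from 203, 243 and 256 normalised reads in DMSO 1 to 3 to 76.2, 78.1 and 73.2 in GSK 1 to 3. Cdt1, which brings the MCM ring to ORC, fell from 352, 494 and 552 to 137, 209 and 178, a log2 fold change of -1.41 (SE 0.18, limma adjusted p = 5.61e-06). DMSO 1 was low for Cdt1 but still above every GSK library. Gmnn, which encodes geminin, the protein that holds CDT1 inactive after licensing, fell from 758, 704 and 729 to 199, 255 and 259, a log2 fold change of -1.63 (SE 0.14, limma adjusted p = 2.13e-08). The ratio of Cdt1 to Gmnn was 0.464, 0.702 and 0.758 in DMSO 1 to 3 and 0.686, 0.823 and 0.689 in GSK 1 to 3, so the groups overlapped. Its difference in log2 ratio was 0.22 (two-sided exact permutation p = 0.6, adjusted 0.9), with SDs of 0.38 in DMSO and 0.15 in GSK libraries, and it was 0.00 without DMSO 1.

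**Figure D2:**
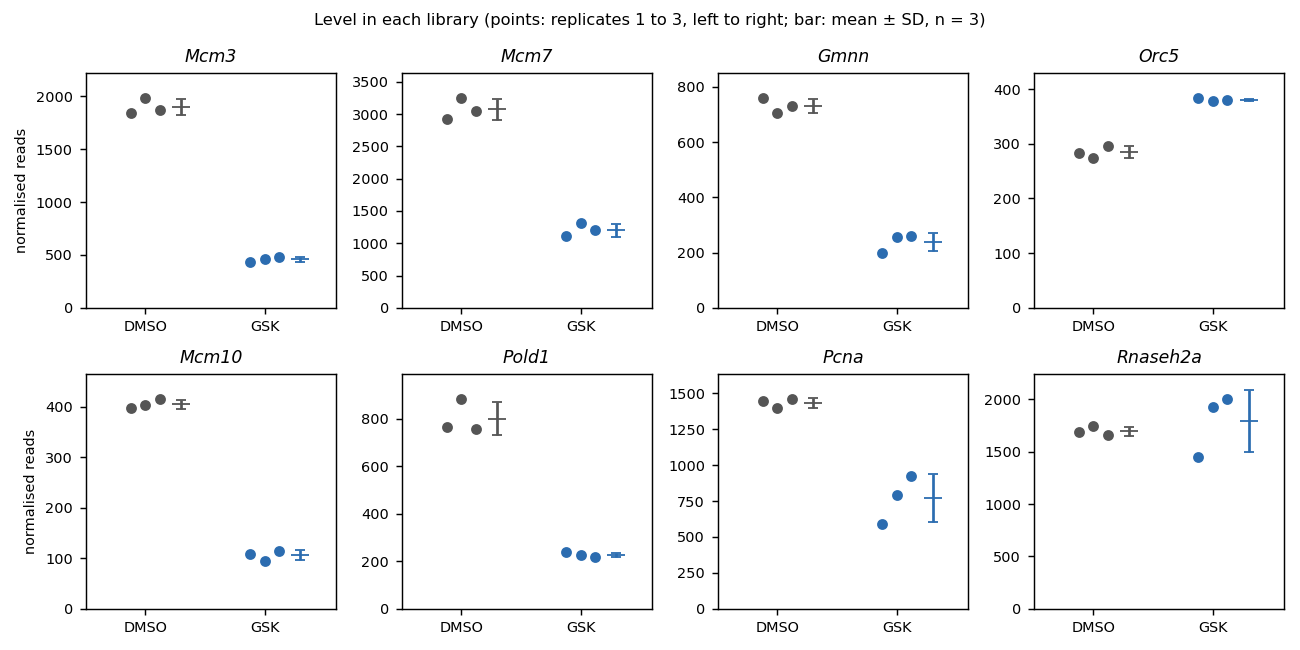
Normalised reads (vertical axis, from 0) in each DMSO and GSK library for 8 replication genes, with points for replicates 1 to 3 from left to right and a bar for the mean ± SD (n = 3). For Mcm3, Mcm7, Gmnn, Mcm10, Pold1 and Pcna every GSK point is below every DMSO point, for Orc5 every GSK point is above, and for Rnaseh2a the groups overlap.

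Of the 8 firing genes, 7 fell, and the median log2 fold change was -0.85. Mcm10, an initiation factor needed to activate the loaded helicase, fell most. It stood at 397, 404 and 415 normalised reads in DMSO 1 to 3 and at 109, 94.6 and 114 in GSK 1 to 3, and both groups were tight. The log2 fold change was -1.93 (SE 0.15, limma adjusted p = 5.18e-09). Cdc45, which joins MCM2-7 and GINS in the active helicase, fell with a log2 fold change of -1.18 (SE 0.14, limma adjusted p = 2.39e-06), from 437, 498 and 443 to 174, 219 and 216. The kinase gene Cdc7 and its activating subunit gene Dbf4, which together form DDK, fell alike, with log2 fold changes of -0.73 and -0.71. Their ratio was 2.08, 2.03 and 1.83 in DMSO 1 to 3 and 2.38, 1.87 and 1.68 in GSK 1 to 3. The difference in log2 ratio was -0.02 (two-sided exact permutation p = 1, adjusted 1), with SDs of 0.10 and 0.26, so a shift within that spread could not be seen.

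The 4 subunit genes of GINS, the complex that joins MCM2-7 and CDC45 in the active helicase, had log2 fold changes from -1.17 to -0.29. Gins1 and Gins3 fell (log2 fold changes -1.17 and -0.97). Gins4, the most abundant of the firing genes per length at 388 ± 6.90 normalised reads per kb in DMSO libraries, was at 530, 513 and 528 normalised reads in DMSO 1 to 3 and 356, 391 and 456 in GSK 1 to 3. All GSK values were lower, with a log2 fold change of -0.39 (SE 0.13, limma adjusted p = 0.0273). The adjusted p was 0.0716 to 0.103 without DMSO 1, DMSO 2, DMSO 3 or GSK 2. Gins2 was at 498, 530 and 533 in DMSO 1 to 3 and 383, 447 and 450 in GSK 1 to 3, also without overlap. Its log2 fold change of -0.29 (SE 0.13, limma adjusted p = 0.089) did not pass. It shares 67.3% of its exon bases with the oppositely oriented gene Gse1, which had values of 409 to 523 in DMSO and 437 to 490 in GSK libraries, and reads of the pair cannot be told apart without strand.

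Among the 26 fork genes, 24 fell, with a median log2 fold change of -1.06. Both catalytic subunits of the main fork polymerases had lower log2 fold changes than the accessory subunits of the list. Pold1, the catalytic subunit of polymerase δ, was at 765, 882 and 756 normalised reads in DMSO 1 to 3 and 237, 227 and 220 in GSK 1 to 3. The log2 fold change was -1.81 (SE 0.13, limma adjusted p = 2.56e-09), the smallest p of the fork genes. Pole, the catalytic subunit of polymerase ε, fell from 653, 690 and 634 to 203, 198 and 190, a log2 fold change of -1.74 (SE 0.13, limma adjusted p = 4.42e-09). In both genes the GSK libraries lay within a narrow band. The accessory subunit genes Pold2, Pold3 and Pole2 fell as well (log2 fold changes -1.05, -0.76 and -0.78). The 4 genes of polymerase α-primase, which lays down the primers, all fell, with log2 fold changes of -1.31 for Pola1, -1.17 for Pola2, -1.02 for Prim1 and -0.92 for Prim2.

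Pcna encodes the sliding clamp that tethers the polymerases, and it was the most abundant fork gene per length, at 945 ± 22.2 (SD, n = 3) normalised reads per kb in DMSO and 507 ± 110 (SD, n = 3) in GSK libraries. It stood at 1449, 1396 and 1459 normalised reads in DMSO 1 to 3 and at 593, 789 and 926 in GSK 1 to 3. The DMSO libraries lay close together and the GSK libraries were spread but all lower. This was a log2 fold change of -0.92 (SE 0.15, limma adjusted p = 5.4e-05). The 5 genes of the clamp loader RFC fell within a narrow range, from -0.95 for Rfc4 to -0.59 for Rfc3 on the log2 scale. Of the single-strand binding complex RPA, Rpa1 and Rpa2 both fell (log2 fold changes -1.12 and -1.15). The small subunit gene Rpa3 was at 440, 401 and 440 normalised reads in DMSO 1 to 3 and 349, 405 and 441 in GSK 1 to 3. These overlapped, and the log2 fold change of -0.10 (SE 0.14, limma adjusted p = 0.587) did not pass.

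The genes that finish Okazaki fragments fell, except for the ribonuclease subunit. Dna2, a nuclease and helicase that trims long flaps, was at 291, 308 and 258 normalised reads in DMSO 1 to 3 and 83.1, 60.6 and 64.7 in GSK 1 to 3. Its log2 fold change of -2.03 (SE 0.17, limma adjusted p = 1.87e-08) was the largest fall of the fork genes. Fen1, the flap endonuclease, and Lig1, the ligase that seals the nicks, fell to 35.5% and 34.7% of their DMSO means, with log2 fold changes of -1.49 and -1.53. Reads of Fen1 could be shared, since 78.8% of its exon bases overlap the antisense gene Gm10143, whose value was 91.6% to 107% of that of Fen1 in each library. Rnaseh2a, the catalytic subunit of RNase H2, which removes RNA from DNA, was at 1688, 1743 and 1659 in DMSO 1 to 3 and 1450, 1923 and 2000 in GSK 1 to 3. GSK 1 was below and the other GSK libraries above all DMSO values. Its log2 fold change was 0.06 (SE 0.14, limma adjusted p = 0.754), and -0.02 without GSK 3. The genes of the other RNase H2 subunits, Rnaseh2b and Rnaseh2c, fell too, at -1.12 and -0.63 on the log2 fold change scale.

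The members grouped as fork protection and checkpoint genes, Timeless, Tipin, Clspn and Wdhd1, all fell. Timeless and Tipin form the fork protection complex, and they fell with log2 fold changes of -1.40 and -1.08. Clspn encodes claspin, the adaptor through which ATR activates CHEK1, and it stood at 378, 319 and 328 normalised reads in DMSO 1 to 3 and 95.6, 133 and 103 in GSK 1 to 3, a log2 fold change of -1.63 (limma adjusted p = 1.66e-07). Wdhd1, also called AND-1, which couples polymerase α to the helicase, fell from 443, 526 and 494 to 184, 142 and 94.4, a log2 fold change of -1.84 (SE 0.19, limma adjusted p = 6.46e-07). It varied most among the GSK libraries, with a coefficient of variation of 32.0%, yet every GSK value was far below the DMSO values.

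The subunits of CAF-1, which deposits new histones behind the fork, fell by different amounts. Chaf1b was at 622, 629 and 584 normalised reads in DMSO 1 to 3 and 214, 194 and 228 in GSK 1 to 3, a log2 fold change of -1.53 (SE 0.13, limma adjusted p = 3.07e-08). Chaf1a was at 816, 973 and 887 in DMSO 1 to 3 and 597, 730 and 714 in GSK 1 to 3, lower in every GSK library, with a log2 fold change of -0.39 (SE 0.13, limma adjusted p = 0.0238). Its adjusted p was 0.134 without DMSO 2 and 0.0602 without DMSO 3. Chaf1a shares 52.5% of its exon bases with the oppositely oriented gene Ubxn6, whose log2 fold change was -0.08. Of the MCM paralogs, which form a helicase used in recombination repair, Mcm8 fell from 204, 205 and 181 to 64.9, 107 and 91.3, a log2 fold change of -1.19 (SE 0.19, limma adjusted p = 5.24e-05). Mcm9 was at 236, 287 and 359 in DMSO 1 to 3 and 226, 244 and 220 in GSK 1 to 3, so its groups overlapped. Mcm9 did not pass (log2 fold change -0.33, SE 0.16, limma adjusted p = 0.112), and it passed at 0.0414 without DMSO 1. Mcm9 shares 19.2% of its exon bases with the oppositely oriented gene Asf1a.

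Levels per kb of transcript allow subunits of a complex to be set side by side. The MCM2-7 genes stayed close to each other, with 2.44 times between the lowest (Mcm4) and the highest (Mcm7) in DMSO and 2.68 times in GSK libraries, where Mcm3 was lowest. The ORC genes were far less even, from 47.0 for Orc1 to 543 for Orc6 normalised reads per kb in DMSO libraries, and from 25.8 to 424 in GSK libraries. The RPA genes spread from 2.69 times in DMSO to 5.44 times in GSK libraries, with Rpa1 lowest and Rpa3 highest in both. For CAF-1, Chaf1b was above Chaf1a in DMSO libraries, at 318 ± 12.8 against 161 ± 14.3 (SD, n = 3) normalised reads per kb. In GSK libraries the genes were close, at 110 ± 8.96 for Chaf1b and 123 ± 13.1 for Chaf1a. Polymerase ε widened from 5.27 to 11.8 times when its small subunit genes Pole3 and Pole4, which are not among the 53, were included, since Pole fell, Pole3 fell less (log2 fold change -0.57) and Pole4 did not pass (0.37). Polymerase δ with Pold4, also outside the 53, narrowed instead, from 10.6 to 2.76 times. Pold4, its scarcest subunit in DMSO libraries, rose, and Pold2, its most abundant in both groups, fell. Pold1 fell as well and was the lowest in GSK libraries. These ratios between genes were not tested, and the length used is that of the principal transcript of each gene.

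**Figure D3:**
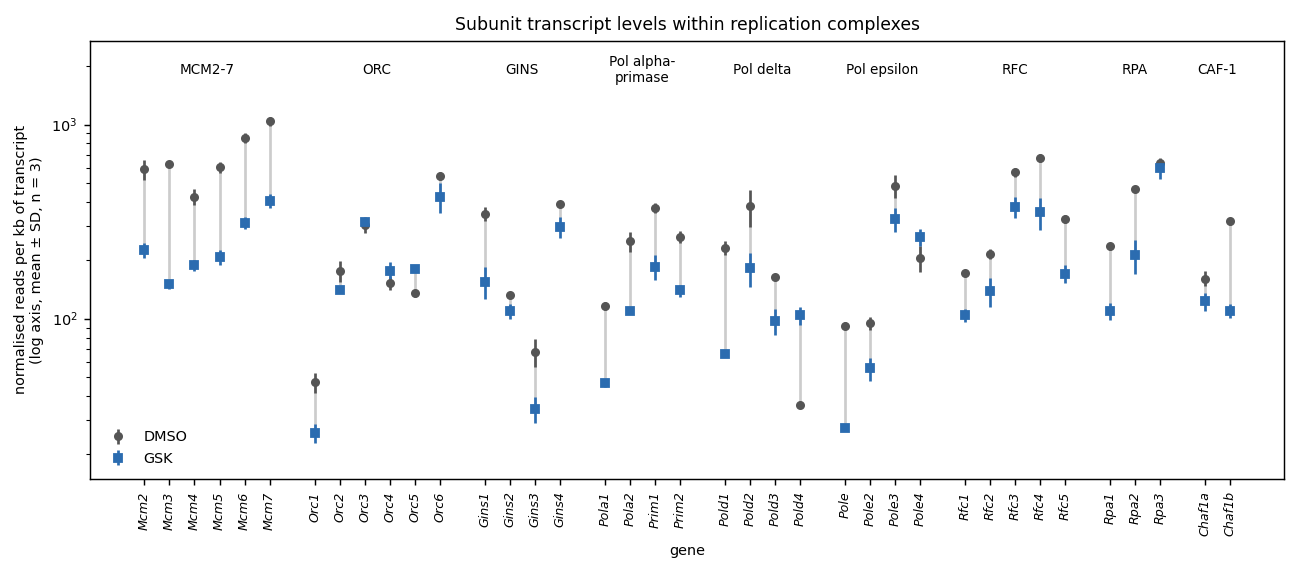
Mean normalised reads per kb of transcript (vertical log axis, ± SD, n = 3) for the subunits of 9 replication complexes in DMSO (circles) and GSK libraries (squares), with a line joining both groups of each gene. All 6 MCM2-7 genes fell, whereas within ORC, GINS, RPA and polymerases δ and ε only some subunits fell. Orc2, Orc3, Orc4, Gins2, Rpa3 and Pole4 did not pass, and Orc5 and Pold4 rose.

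RefSeq windows matched 44 of the 53 members by symbol, with 53 windows between them because some genes have several starts. Windows were missing for Gins4, Prim2, Rfc2, Pole, Gmnn, Gins1, Mcm4, Gins2 and Tipin. An E2F word was found in 17 of the 53 member windows (32.1%), against 2.26% of all 32851 windows, and in 17 of the 44 members, against 4.61% of the 11226 tested genes with a window. The member windows were richer in G and C, with a median of 62.3% against 52.7%, and among the 13248 windows with at least the GC content of the members' lower quartile 4.07% held a word. Of the 23 words in member windows, 16 began within 50 bases of the start on either side. The 17 members with a word were Mcm3, Mcm5, Mcm6, Mcm7, Mcm8, Orc1, Orc3, Cdc6, Cdt1, Gins3, Pola1, Pold1, Pold3, Pole2, Rfc3, Lig1 and Clspn. All of these but Orc3 fell, and their median log2 fold change was -1.35, while of the 27 members with a window and no word 21 fell, with a median of -0.95. Members without a word in the window included Dna2, Mcm10 and Wdhd1, with log2 fold changes of -2.03, -1.93 and -1.84. Among the other tested genes, 29.2% of the 500 with a word fell, against 19.1% of the 10682 without. The word CCAAT was found in 52.8% of member windows against 37.4% of all windows, and TTTGAA, the letters of the cell cycle homology region, in 15.1% against 17.9%, both searched on either strand. The absence of a word says only that these letters are not in this window.

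**Figure D4:**
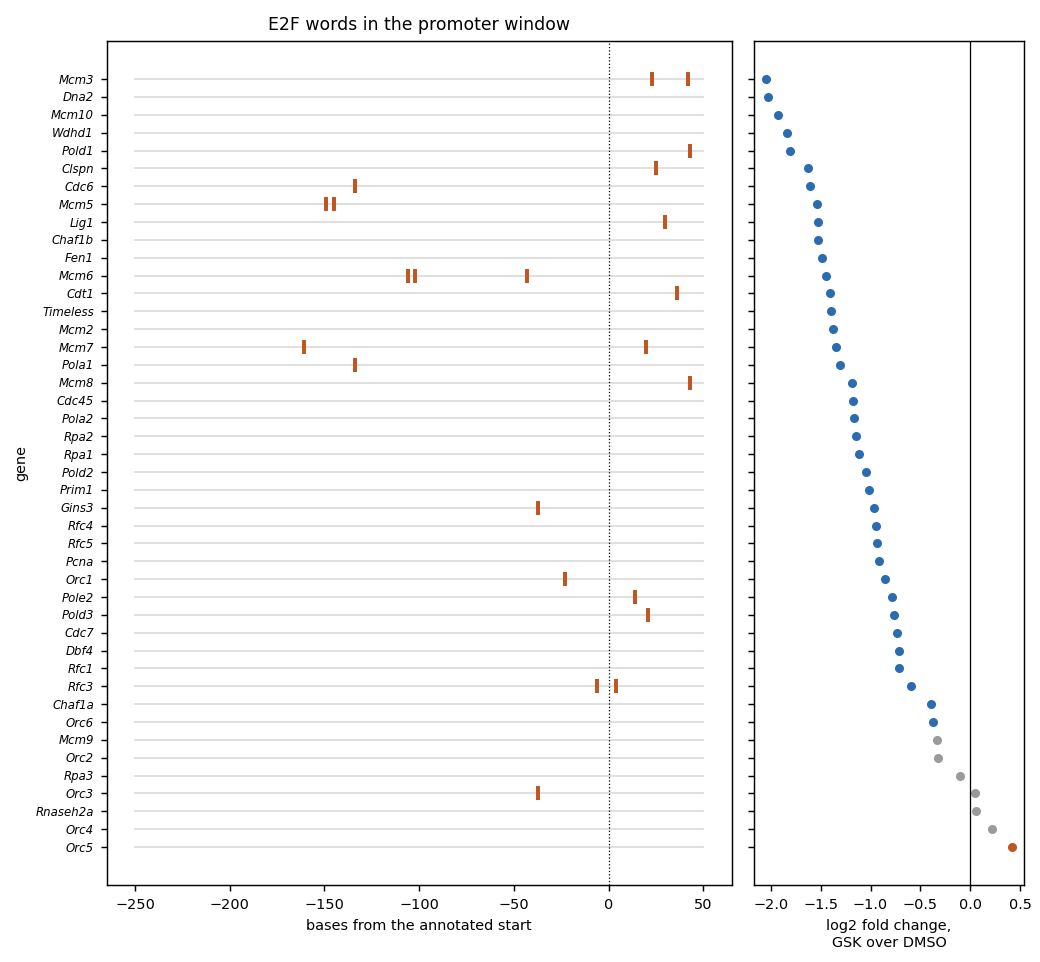
Positions of E2F words (ticks at the middle of each word, left panel, horizontal axis in bases from the annotated start) in the RefSeq promoter windows of 44 replication genes, with the words of all windows of a gene on a single line, beside each gene's log2 fold change (right panel, GSK over DMSO, coloured by the result of the test as in the plot of fold changes). Words occur in 17 of the genes, both among those that fell most, such as Mcm3, and among those near 0, such as Orc3.

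Further genes of replication, outside the 53, were taken from a separate list of 40, of which 39 were tested. Of these, 30 fell and 1 rose, and the median log2 fold change was -0.84. The smallest p belonged to Chtf18, part of an alternative clamp loader, which fell from 447, 473 and 439 normalised reads in DMSO 1 to 3 to 101, 109 and 90.2 in GSK 1 to 3, a log2 fold change of -2.17 (SE 0.15, limma adjusted p = 1.16e-09). Dtl, the substrate receptor that marks CDT1 for destruction at PCNA, had a log2 fold change of -1.56, and Pclaf, a PCNA-binding protein gene, one of -1.65. The cyclin gene Ccne1, which drives entry into S phase, fell with a log2 fold change of -1.96, and Ticrr, a firing factor gene also known as treslin, with one of -1.76. Pold4, the smallest subunit of polymerase δ and one known to be degraded after DNA damage, was the gene that rose, from 31.9, 32.6 and 33.5 to 84.2, 96.5 and 105. This log2 fold change of 1.51 (SE 0.22, limma adjusted p = 1.76e-05) had the opposite sign to those of Pold1, Pold2 and Pold3. In a list of 20 mitosis genes all 20 fell, with a median of -1.26. Another list held 15 genes of translesion, repair and mitochondrial polymerases, repair ligases and Xrcc1. In it 4 fell (Polg, Polq, Lig3 and Xrcc1) and 1 rose (Polb), with a median of -0.08. Over all genes tested 19.1% fell and 17.0% rose. No test compared these lists with the replication genes.

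Markers of several cell types also differed between the groups, some lower and some higher in GSK libraries. Of the 12 radial glia markers 9 fell, with log2 fold changes in the list from -3.78 for Fabp7 to 0.31 for Lhx2, which did not pass. The summed level of the 12 was 12368 to 15387 normalised reads in GSK against 21963 to 23041 in DMSO libraries. Vim, which did not pass, made 8061 to 10278 of the GSK sum and 10011 to 10255 of the DMSO sum. Prom1, the gene of the sort marker, fell with a log2 fold change of -1.01. Of 6 intermediate progenitor markers 4 rose, and the list summed to 1021 to 1467 in DMSO and 1930 to 2564 in GSK libraries. Of 10 neuron markers 6 rose, with sums of 7338 to 14780 and 22137 to 26945. Of 11 erythroid markers tested 10 rose, with sums of 2478 to 21074 over the 12 listed in DMSO and 187163 to 277733 in GSK libraries, where they made 2.29% to 2.99% of all reads. Of 11 macrophage markers tested 6 rose, with sums of 104 to 409 and 625 to 1344 over the 12 listed. Of 5 endothelium and pericyte markers tested none passed, with sums of 891 to 1141 and 864 to 1150 over the 9 listed. Nearly all of these sums came from Pdgfrb, at 834 to 1045 in DMSO and 803 to 1066 in GSK libraries, and the other markers were low. Of 7 mesenchyme markers 2 fell, with sums of 26431 to 33314 in DMSO and 16268 to 25559 in GSK libraries. No marker was at 0 in all 6 libraries, and Hba-a2, C1qb, Cdh5, Cldn5 and Rgs5 were at 0 in at least 1. DMSO 3 was the lowest library for the erythroid and neuron sums, and 43 members fell without it. The part of these shifts in the fall of the replication genes was not tested. The summed member level made 0.488% to 0.512% of reads in DMSO and 0.238% to 0.252% in GSK libraries. With totals set equal after globin and ribosomal RNA genes were removed, 45 members fell, with a median log2 fold change of -1.04.

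**Figure D5:**
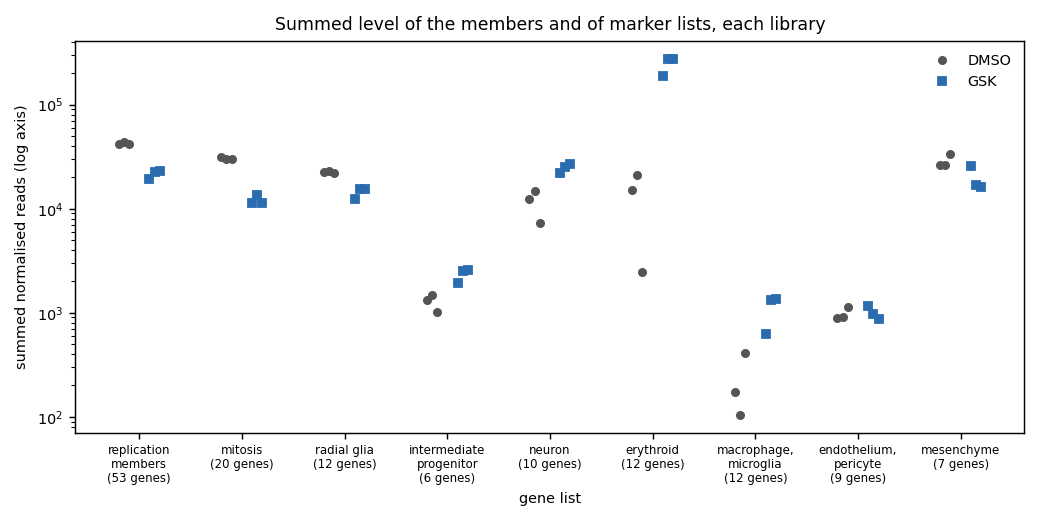
Summed normalised reads (vertical log axis) of the 53 replication genes, a mitosis list and 7 marker lists in each DMSO library (circles) and GSK library (squares). The replication, mitosis, radial glia and mesenchyme sums are lower in every GSK library, the intermediate progenitor, neuron, erythroid and macrophage sums are higher in every GSK library, and the endothelium and pericyte sums overlap.

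GSK 1 differed from the other GSK libraries. The difference went with transcript length both among the members and among all tested genes with a known length. The median log2 ratio of GSK 1 to the mean of GSK 2 and GSK 3 was -0.22 across members and -0.06 across 13183 genes. The median log2 ratio of a member to its DMSO mean was -1.27 in GSK 1, -1.01 in GSK 2 and -0.93 in GSK 3. Without GSK 1, 44 members fell and the median log2 fold change was -0.90. Across the 53 members the log2 ratio of GSK 1 to the mean of GSK 2 and GSK 3 went with transcript length (Spearman rho = 0.49), and it did so across 13183 genes as well (0.51), so that short transcripts were lower in GSK 1. Genes within a library are not independent, and this is a description. The log2 fold change itself had a rho of -0.21 with length across the members, and 45 members fell after the length trend over all genes was removed, with Orc2 passing (limma adjusted p = 0.0384) and Chaf1a not (0.0809).

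Some members share exon bases with a neighbouring gene, and the deposited values give no strand. Of the 9 members that share at least 10% of their exon bases with another gene of the table (Orc1, Orc2, Gins2, Rfc2, Rfc4, Rfc5, Fen1, Chaf1a and Mcm9), 6 fell, with a median log2 fold change of -0.64. Among the 36 members that overlap no gene of the table, 33 fell and Orc5 rose, with a median of -1.16. These include Orc5, Pole2, Timeless and Rpa1, which overlap annotated genes that have no value here, by 1.46%, 8.50%, 1.82% and 0.789% of their exon bases. Of the 8 with a smaller overlap 6 fell, with a median of -1.27. Orc2 shares 29.8% of its exon bases with Nif3l1, whose log2 fold change was -0.16. Rnaseh2a shares 339 bases, or 9.66% of its exons, with Gm49661 on the same strand, whose mean value was 0. It also shares 177 bases, or 5.04%, with the oppositely oriented gene Prdx2. Prdx2 rose by 0.44 on the log2 scale (limma adjusted p = 0.0359), from 6424 to 7312 normalised reads in DMSO to 7547 to 10819 in GSK libraries. The part of shared reads in these values was not tested.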

How the data were processed

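The deposited signal values are read counts normalised by the authors, 1 value per gene and library, in a table of 118098 rows that repeats each gene on its transcript rows. The submitters' processing notes list STAR, DESeq, GRCm38 and mm10, while the counter, annotation release and strand setting were not given in the sources used here. Dividing each value by the smallest above 0 in its library gave a whole number for 100% of values, within 0.01, so whole reads were recovered. A total of 128 genes had no name.

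Genes were tested with limma 3.58.1 (R 4.3.3) on log2(value + 1), using a trended and robust variance prior. This scale understates changes of low genes. The fit covered the 15073 genes averaging 10 or more over 6 libraries, with group as the only term, two-sided, and Benjamini-Hochberg adjustment over all of them at 0.05. The fit was also run on simulated counts with known changes, and its outcome is not reported here. Ratios were compared by exact permutation. Levels per kb use the principal transcript of GENCODE vM21, which also gave coordinates.

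The members and lists were chosen with earlier results of these data known. Within a role, the members with the highest level per length, the smallest p, and the largest and smallest log2 fold change were given in every library. Further members were given so where a complex or ratio turned on them, chosen after their values were seen. Of other replication genes, up to 5 that fell and 5 that rose by smallest p were named. Subunits of a member's complex, overlapping genes and Prom1 were named beside the result they bear on. Alternatives included edgeR 4.0.16 and DESeq2 1.42.0 on recovered reads, other scalings, filters and pseudocounts, and each library left out. Removal of the transcript length trend was added after the data were seen.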

Additional observations from a re-analysis of the deposited data

How the results depend on the processing

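Of the 46 members that passed, 42 kept their direction and call under all 19 other settings of the fit, and 4 (Orc5, Orc6, Gins4 and Chaf1a) lost the call in at least 1. The number that fell stayed between 42 and 47 under other scalings, filters, pseudocounts, thresholds and tools, with 46 by edgeR and 45 by DESeq2, and was 42 to 45 with a library left out. With a fall of at least 2-fold required it was 29 in all, 3 of the firing genes, 15 of the fork genes, 1 of the CAF-1 genes and 17 of the other replication genes. The number that rose was 0 at an adjusted p below 0.01, 0 at 2-fold, and 0 to 1 with a library left out. Of the CAF-1 genes 1 fell with a plain variance prior, 1 with the length trend removed, 1 at an adjusted p below 0.01, and 1 to 2 with a library left out. Of the other replication genes 2 rose with totals set equal without globin and ribosomal RNA genes, and 1 to 2 rose with a library left out.

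The replicate block gave 45 members that fell, 1 that rose, and 2 other replication genes that rose, and it changed no member's call. The labels give replicate numbers and do not say whether same-numbered libraries were paired. Deviations of same-numbered libraries had correlations of 0.0131, -0.0236 and 0.0529, and not every library correlated best with its own number. With so few libraries in each group, these correlations cannot decide whether libraries were paired.

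The median log2 fold change of the members ran from -0.90 to -1.19 with a library left out and was -1.15 with equal totals. Orc3 turned to -0.02 with equal totals and -0.02 with the length trend removed, and ran from -0.01 to 0.12 with a library left out. Rnaseh2a turned to -0.01 with equal totals and ran from -0.02 to 0.21 with a library left out. The log2 ratio of Cdc7 to Dbf4 ran from -0.16 to 0.09 with a library left out. Orc2 passed with equal totals (0.025), TMM scaling (0.0439), edgeR (0.0421), the length trend removed (0.0384) and without DMSO 3 (0.0296), and Gins2 with equal totals (0.024). The cause of these changes was not tested. With 3 libraries a group, small shifts such as those of Orc6 or Gins4 are near the limit of what the test resolves.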
